A study of Mus musculus with 13 samples.

Results

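Imprinted genes were described in glia of the mouse spinal cord. The genes were 38 loci listed by symbol, from 19 paternally and 18 maternally expressed genes and the Gnas locus, which has transcripts of either kind. Of them 36 had a row in a table of 39171 genes, while Peg13 and Kcnq1ot1 are not analysed here. H19 and Rian were found by identifier. The row named Snrpn (ENSMUSG00000000948) carries the name Gm38393 in GENCODE M21 and shares exons with Snrpn, Snurf and small nucleolar RNAs, so its values are uncertain as a measure of Snrpn alone.

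The 13 RNA sequencing libraries came from spinal cord cells of C57BL/6 mice sorted by flow cytometry at postnatal day 9 (P9) or 12 (P12). KO mice lacked Il33, the gene of the IL-1 family cytokine interleukin-33, and WT mice were littermate controls. Astrocytes carrying an Aldh1l1-GFP reporter gave 4 KO libraries (3 at P12, and library 2 at P9) and 3 WT libraries (2 at P12, and library 3 at P9). Microglia positive for CD11b, a surface protein that other myeloid cells also carry, gave 3 KO and 3 WT libraries, all at P12. Libraries of 1 group count as biological replicates according to the design text, and the number of mice behind each is not given in the sources used here.

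An imprinted gene is transcribed mainly from 1 parental copy, set by DNA methylation laid down in the egg or the sperm. Most lie in clusters under a shared control region, and paternally expressed genes often promote growth that maternally expressed ones restrain, as with Igf2 and its clearing receptor Igf2r. In the brain many are known from neurons and from growth, feeding and maternal behaviour, and the parental bias of some (Ube3a, Grb10, Igf2) differs between neurons and other cells. The values here are FPKM, fragments scaled to transcript length and library size, and they do not separate the parental copies.

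The promoters of 3 paternally expressed members that were high in astrocytes are shown with their CpG. The shared control region of a cluster can lie away from a member's promoter, and methylation was not measured here. The windows are therefore not shown as the sites of the imprint. Each runs from 250 bases before to 50 bases after the start of transcription, 5′ to 3′ on the gene's strand, with CpG in capitals (RefSeq, GRCm38.p6). The Peg3 window is chr7:6730370-6730669 on the minus strand, the Ndn window chr7:62348027-62348326 on the plus strand and the Nnat window chr2:157559828-157560127 on the plus strand, inside Blcap.
Peg3: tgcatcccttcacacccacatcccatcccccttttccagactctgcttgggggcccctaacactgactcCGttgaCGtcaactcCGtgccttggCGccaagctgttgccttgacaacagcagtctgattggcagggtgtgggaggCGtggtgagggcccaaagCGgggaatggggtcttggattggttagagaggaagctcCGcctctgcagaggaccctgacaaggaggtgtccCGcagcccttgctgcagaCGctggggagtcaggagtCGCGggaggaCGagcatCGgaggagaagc
Ndn: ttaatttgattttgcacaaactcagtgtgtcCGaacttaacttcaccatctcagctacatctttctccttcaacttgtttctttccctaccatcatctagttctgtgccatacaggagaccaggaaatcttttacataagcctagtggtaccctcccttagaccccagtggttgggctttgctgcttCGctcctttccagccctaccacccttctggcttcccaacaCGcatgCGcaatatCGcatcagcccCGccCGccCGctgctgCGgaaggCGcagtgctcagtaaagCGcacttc
Nnat: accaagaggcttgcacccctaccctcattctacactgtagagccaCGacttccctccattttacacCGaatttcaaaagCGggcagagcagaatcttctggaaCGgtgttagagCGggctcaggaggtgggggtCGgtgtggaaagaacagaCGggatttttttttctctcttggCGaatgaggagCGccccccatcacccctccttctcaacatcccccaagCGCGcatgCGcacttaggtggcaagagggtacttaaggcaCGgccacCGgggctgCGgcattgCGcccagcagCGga
These windows held 13, 11 and 17 CpG, for Peg3, Ndn and Nnat in that order. RefSeq promoters matched 31 listed genes, with 48 windows holding a median of 13.5 CpG, against a median of 7 over 32851 windows of all genes. The letters TGCCGC, the core that the imprint-keeping factor ZFP57 is known to bind when methylated, were found on either strand in 25.0% of the listed genes' windows and in 11.6% of all. Of the 3 windows shown, only that of Nnat held them. TGCCGC itself contains a CpG, and the listed genes' windows were richer in CpG than all windows. Whether their higher share of TGCCGC goes beyond that was not tested. The Mest windows starting at 30737800 and 30737803 nearly coincide, and both were counted as holding TGCCGC. The Peg3 window overlaps that of Usp29, which is read the other way, by 263 bases, and their starts lie 146 bases apart.

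The absolute depth is unknown. Steps in the lowest values put the astrocyte libraries at 33.7% to 63.3% and the microglia libraries at 73.2% to 100% of the depth of the deepest, KO microglia library 2. Low astrocyte values therefore rest on fewer reads. Libraries of 1 group agreed least in WT microglia, where log2(FPKM + 1) over all genes correlated at 0.872 to 0.898. The ranges were 0.925 to 0.946 in KO microglia, 0.933 to 0.941 in KO astrocytes and 0.920 to 0.937 in WT astrocytes. Il33 was at 2.28, 2.05, 0.424 and 0.733 FPKM in KO astrocytes, against 96.3, 113 and 108 FPKM in WT astrocytes, and at most 1.26 FPKM in microglia. The sort labels held in the marker genes. The 12 astrocyte markers summed to 7159 to 10666 FPKM in KO and 7629 to 12378 FPKM in WT astrocytes and to at most 123 FPKM in microglia. The 12 microglia markers summed to at least 8515 FPKM in each microglia library and at most 79.9 FPKM in each astrocyte library. Slc1a2, which astrocytes use throughout, was listed at 0 in KO astrocyte library 3 and WT astrocyte library 1, so a value of 0 in these files can be a failed estimate, and no mean ± SD is given for groups holding a 0, while fitted differences and counts of group means take the 0s as deposited.

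Most imprinted genes were detected in both glial types, over a wide range of levels. A mean of at least 1 FPKM was reached by 27 members in KO astrocytes, 26 in WT astrocytes, 20 in KO microglia and 24 in WT microglia, and by 28 in at least 1 group. Levels per length were highest for Gnas, which encodes the stimulatory G protein subunit Gs-alpha and whose WT astrocyte mean lay above 99.7% of all genes, followed in astrocytes by Nnat, above 98.7%. Those 2 genes in astrocytes and Gnas in microglia were the only members with a group mean of 100 FPKM or more. The other 8 measured members stayed under 1 FPKM in all 4 group means, namely Phlda2, Slc22a18, Dlk1, Usp29, Zim1, Asb4, Magel2 and Peg12, with Phlda2 listed at 0 in every library. Peg3 and Usp29, whose starts are 146 bases apart, differed in level throughout: Usp29 reached at most 2.15 FPKM in any library, while Peg3 was at 24.9 FPKM or more in every astrocyte library.

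**Figure D1:**
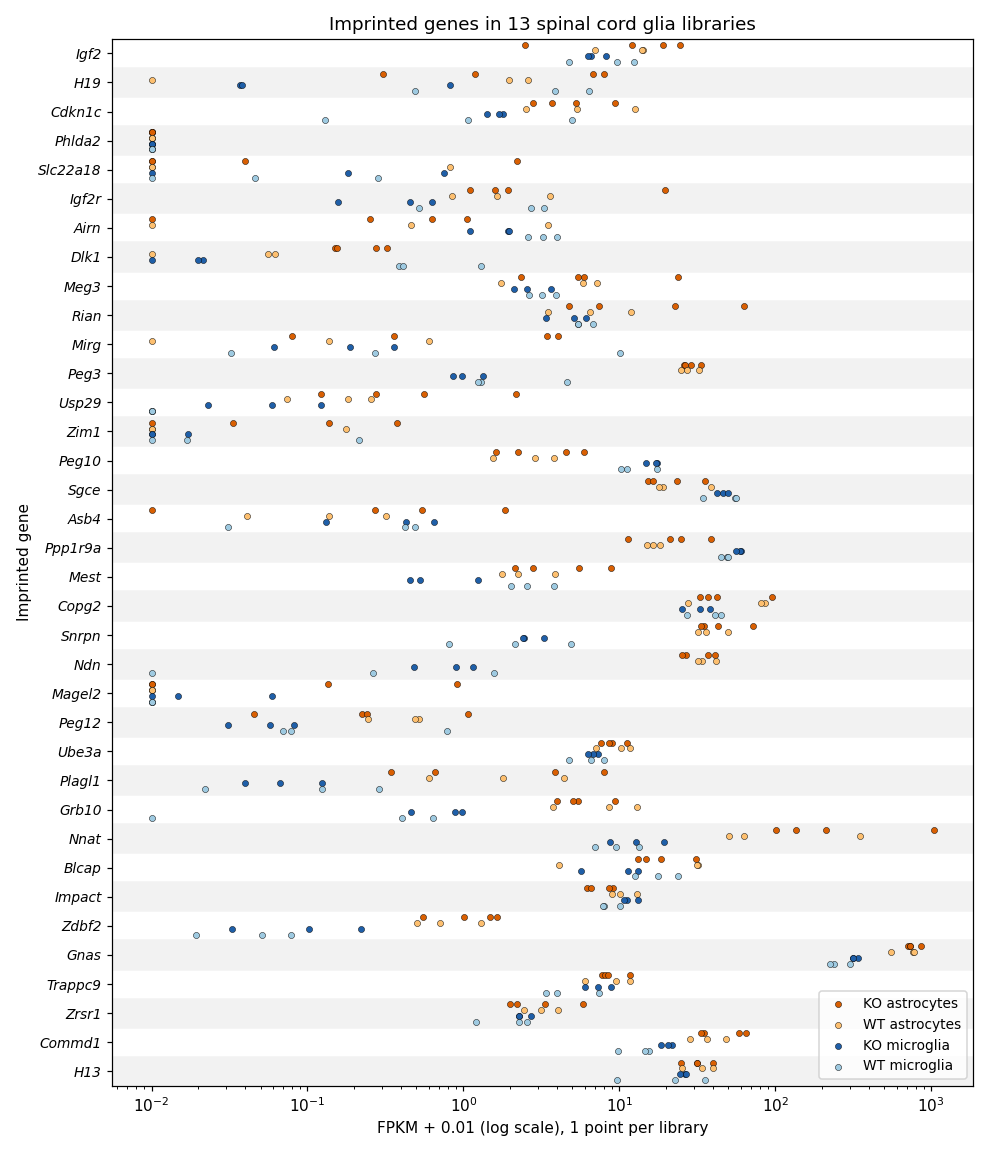
Level of the 36 measured imprinted genes in each library (FPKM + 0.01, log scale, 1 point per library), coloured by KO and WT astrocytes and KO and WT microglia. Ndn, Peg3, Snrpn, Grb10 and Nnat lie higher in every astrocyte library than in any microglia library, and Peg10 and Ppp1r9a lie lower.

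WT astrocytes and WT microglia were compared with limma on log2(FPKM + 1), with all 13 libraries fitted together, age as a covariate and p-values adjusted by Benjamini-Hochberg over all genes tested. A difference of 1 log2 unit on that scale is a doubling for abundant genes and understates the change of low ones. Of 27 members tested, 12 passed an adjusted p of 0.05, 9 of them higher in astrocytes and 3 lower. Over all 16258 genes tested, 53.6% passed (24.5% higher and 29.1% lower). The member differences had a median of 0.66 on the log2 scale, against -0.21 over all genes tested. The WT groups of 10 members did not overlap, against 55.8% of all genes. Of the paternally expressed members that passed, Ndn, Snrpn, Peg3 and Nnat were higher in astrocytes and Peg10 and Sgce lower, and of the maternally expressed ones, Grb10, Commd1, Ube3a and Copg2 were higher and Ppp1r9a lower.

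Among the listed members tested, the largest difference was in the Snrpn-Ndn cluster of chromosome 7, known from Prader-Willi and Angelman syndromes. Ndn (necdin, a MAGE family protein known to restrain proliferation, chr7:62346569-62350262) was at 26.8, 41.2, 25.3 and 36.8 FPKM in KO libraries 1 to 4 and 33.8, 41.8 and 32.1 FPKM in WT libraries 1 to 3. Microglia held 0.473, 0.890 and 1.14 FPKM in the KO and 1.56, 0.254 and 0 FPKM in the WT libraries. Every astrocyte library stood above every microglia library, and the WT difference was 4.59 log2 units (SE 0.37, adjusted p = 2.12e-06). Snrpn, whose product SmN belongs to the splicing machinery, was at 72.4, 35.00, 33.6 and 42.8 FPKM in KO libraries 1 to 4 and 36.04, 50.04 and 31.8 FPKM in WT libraries 1 to 3, against 3.30, 2.42 and 2.40 FPKM in the KO and 4.92, 0.795 and 2.13 FPKM in the WT libraries of microglia. Again the cell types did not overlap, with a difference of 3.76 log2 units (SE 0.43, adjusted p = 3.24e-05). Snurf, one of the further imprinted genes counted below, shares 216 exonic bases with that row. It was at 155, 336 and 129 FPKM in WT astrocytes and 22.8, 4.71e-37 and 28.6 FPKM in WT microglia. Its difference of 4.81 log2 units (SE 1.08, adjusted p = 0.00321) was larger than that of Ndn, with a wider error. Ube3a, the ubiquitin ligase that is maternal in neurons, was at 8.96, 7.58, 11.3 and 8.59 FPKM in KO libraries 1 to 4 and 10.2, 11.6 and 7.08 FPKM in WT libraries 1 to 3, and at 7.26, 6.75 and 6.32 FPKM in the KO and 4.73, 7.99 and 6.56 FPKM in the WT libraries of microglia. Its means were 9.63 ± 2.33 FPKM in WT astrocytes and 6.43 ± 1.63 FPKM in WT microglia (SD, n = 3 each). Its WT libraries overlapped, and the difference of 0.66 log2 units (SE 0.22, adjusted p = 0.0274) no longer passed without WT astrocyte library 1 (adjusted p = 0.0581), WT astrocyte library 2 (0.0960) or WT microglia library 1 (0.0835). Ube3a shares exon sequence with its antisense partner Snhg14, and without strand the reads of both cannot be told apart. Magel2 was listed at 0 in all WT libraries and reached 0.902 FPKM at most, in KO astrocyte library 4.

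Peg3 (chr7:6703892-6730431), a zinc finger protein known for its part in maternal behaviour and growth, was at 26.1, 28.8, 26.4 and 33.6 FPKM in KO libraries 1 to 4 and 24.9, 27.2 and 32.5 FPKM in WT libraries 1 to 3. Its level in microglia was 1.34, 0.850 and 0.973 FPKM in the KO and 4.59, 1.28 and 1.23 FPKM in the WT libraries. All astrocyte libraries were above all microglia libraries, by 3.20 log2 units (SE 0.34, adjusted p = 2.04e-05) between the WT groups. WT microglia library 1 was the highest of the microglia for Peg3, Ndn and Snrpn, and it also had the highest sums of 12 neuronal markers (66.3 FPKM, against 12.9 to 21.2 FPKM in the other microglia) and of 12 fibroblast and meningeal markers (19.9, against 2.7 to 5.9 FPKM). The part of those cells in its values was not tested. Without that library the WT difference in log2 units was 4.98 for Ndn, 4.20 for Snrpn and 3.64 for Peg3, each past the threshold.

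Nnat encodes neuronatin, a small membrane protein of the endoplasmic reticulum, and lies inside an intron of the opposite-strand gene Blcap. It was at 136, 212, 101 and 1048 FPKM in KO libraries 1 to 4 and 63.01, 50.6 and 349.9 FPKM in WT libraries 1 to 3, a wide spread within 1 cell type, with KO library 4 and WT library 3 the highest of their groups. In microglia it was at 12.8, 8.72 and 19.4 FPKM in the KO and 13.3, 6.996 and 9.48 FPKM in the WT libraries. The lowest astrocyte library stood above the highest microglia library, and the WT difference was 2.93 log2 units (SE 0.87, adjusted p = 0.0158). Its host gene Blcap, a small membrane protein, did not pass, at 22.5 ± 15.97 FPKM in WT astrocytes and 18.1 ± 5.64 FPKM in WT microglia (SD, n = 3 each), a difference of -0.18 log2 units (SE 0.70, adjusted p = 0.852). Gnas was at 715, 732, 855 and 728 FPKM in KO libraries 1 to 4 and 769, 554 and 777 FPKM in WT libraries 1 to 3. Microglia held 316, 342 and 315 FPKM in the KO and 302, 238 and 226 FPKM in the WT libraries. The groups did not overlap, with 1.42 log2 units (SE 0.19, adjusted p = 9.06e-05) between WT astrocytes and WT microglia. Gnas exons overlap the antisense transcript Nespas, so a part of its reads is uncertain.

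Of Grb10, Igf2, Igf2r, Cdkn1c, Plagl1 and H19, Grb10 alone passed. Grb10, an adaptor known to dampen insulin and IGF1 receptor signalling, was at 3.99, 9.40, 5.43 and 5.05 FPKM in KO libraries 1 to 4 and 3.75, 8.55 and 13.1 FPKM in WT libraries 1 to 3. Microglia held 0.450, 0.968 and 0.870 FPKM in the KO and 0, 0.625 and 0.394 FPKM in the WT libraries. No astrocyte library fell below any microglia library, and the difference of 2.40 log2 units (SE 0.33, adjusted p = 0.000115) became 4.17 with a pseudocount of 0.1. Igf2, the fetal growth factor, was at 2.48, 12.01, 19.1 and 24.6 FPKM in KO libraries 1 to 4 and 14.3, 7.02 and 14.03 FPKM in WT libraries 1 to 3 and at 6.57, 8.17 and 6.28 FPKM in the KO and 12.4, 4.75 and 9.70 FPKM in the WT libraries of microglia. Its groups overlapped (0.30 log2 units, SE 0.69, adjusted p = 0.743), as did those of Igf2r, the receptor that clears IGF2 from the cell surface (-0.03 log2 units, SE 0.85, adjusted p = 0.994), and of Cdkn1c, the cell cycle inhibitor p57 (1.05 log2 units, SE 0.55, adjusted p = 0.130). Plagl1, a zinc finger transcription factor known to regulate other imprinted genes, was at 7.95, 0.645, 0.335 and 3.85 FPKM in KO libraries 1 to 4 and 0.593, 4.42 and 1.78 FPKM in WT libraries 1 to 3 and at 0.0300, 0.113 and 0.0570 FPKM in the KO and 0.279, 0.0120 and 0.114 FPKM in the WT libraries of microglia. Its cell types did not overlap across all 13 libraries, and the difference did not pass (1.58 log2 units, SE 0.71, adjusted p = 0.0818). Zdbf2, a zinc finger protein, fell under the filter of a mean of 1 FPKM in this fit, and it ranged over 0.491 to 1.63 FPKM in astrocytes and 0.00939 to 0.212 FPKM in microglia. H19, the non-coding neighbour of Igf2, ranged over 0 to 7.94 FPKM in astrocytes and 0.0272 to 6.41 FPKM in microglia.

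The 3 members lower in astrocytes, Peg10, Ppp1r9a and Sgce, are of the Peg10-Sgce cluster of chromosome 6, and whether the cluster differs as a whole was not tested. Peg10, a gene derived from a retrotransposon and needed in the placenta, was at 4.56, 5.89, 2.24 and 1.62 FPKM in KO libraries 1 to 4 and 2.85, 1.53 and 3.80 FPKM in WT libraries 1 to 3. In microglia it was at 17.4, 14.7 and 17.1 FPKM in the KO and 10.3, 11.1 and 17.3 FPKM in the WT libraries, above every astrocyte library, and the WT difference was -2.17 log2 units (SE 0.33, adjusted p = 0.000247). Ppp1r9a, which encodes the actin-binding protein neurabin, was at 11.3, 21.2, 24.9 and 38.97 FPKM in KO libraries 1 to 4 and 16.4, 18.1 and 15.00 FPKM in WT libraries 1 to 3. In microglia it was at 60.2, 59.3 and 55.9 FPKM in the KO and 44.6, 48.7 and 49.7 FPKM in the WT libraries, again with no overlap, and the difference was -1.43 log2 units (SE 0.36, adjusted p = 0.00587). Sgce, the epsilon-sarcoglycan gene whose loss from the paternal copy causes myoclonus dystonia in people, starts 98 bases from Peg10 on the other strand. It was at 23.5, 35.3, 15.3 and 16.5 FPKM in KO libraries 1 to 4 and 19.1, 38.9 and 18.1 FPKM in WT libraries 1 to 3 and at 42.3, 46.1 and 50.03 FPKM in the KO and 54.9, 55.7 and 34.5 FPKM in the WT libraries of microglia. Those WT groups overlapped through WT astrocyte library 2, and the difference was -1.04 log2 units (SE 0.38, adjusted p = 0.0414). It reached -1.57 log2 units without that library (adjusted p = 0.00402). The call was lost, at adjusted p between 0.0507 and 0.147, on leaving out any one of KO astrocyte libraries 2, 3 and 4, WT astrocyte libraries 1 and 3, the 3 KO microglia libraries and WT microglia libraries 1 and 2. Asb4, the fourth member of the cluster, stayed at or under 1.84 FPKM in all libraries. Of the further imprinted genes nearby on chromosome 6, the paraoxonase gene Pon2 was higher in astrocytes, at 295, 254 and 283 FPKM in WT astrocytes and 86.4, 72.7 and 52.6 FPKM in WT microglia (2.02 log2 units, SE 0.22, adjusted p = 1.92e-05). Its neighbour Pon3 was lower (-3.06 log2 units, SE 0.58, adjusted p = 0.00114), and so was Casd1, a sialic acid acetyltransferase gene (-0.96 log2 units, SE 0.33, adjusted p = 0.0296).

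Pairs of genes that share exon sequence need care, since the sources used here do not say whether the libraries kept strand. Commd1, a regulator of copper handling and NF-kB, overlaps the retrogene Zrsr1 in 412 exonic bases and was at 58.5, 34.9, 33.4 and 65.05 FPKM in KO libraries 1 to 4 and 28.4, 48.2 and 36.2 FPKM in WT libraries 1 to 3. In microglia it was at 18.5, 21.9 and 20.6 FPKM in the KO and 15.5, 14.5 and 9.86 FPKM in the WT libraries, below every astrocyte library, with a difference of 1.52 log2 units (SE 0.31, adjusted p = 0.00189). Zrsr1 was low in both, at 3.20 ± 0.788 FPKM in WT astrocytes and 2.01 ± 0.712 FPKM in WT microglia (SD, n = 3 each). Copg2, a coatomer subunit of the Golgi, overlaps Mest in 912 exonic bases. It was at 95.8, 32.8, 37.1 and 42.1 FPKM in KO libraries 1 to 4 and 85.6, 81.1 and 27.5 FPKM in WT libraries 1 to 3 and at 38.4, 25.2 and 32.8 FPKM in the KO and 40.8, 45.2 and 27.1 FPKM in the WT libraries of microglia. Its groups overlapped, and the difference of 1.00 log2 units (SE 0.38, adjusted p = 0.0477) no longer passed (adjusted p between 0.0517 and 0.154) without any one of WT astrocyte libraries 1 and 2 and the 6 microglia libraries. The transport gene Trappc9 (0.81 log2 units, SE 0.33, adjusted p = 0.0589), the signal peptide peptidase gene H13 (0.74 log2 units, SE 0.40, adjusted p = 0.144) and Impact, a regulator of translation (0.39 log2 units, SE 0.20, adjusted p = 0.137), did not pass. In the Dlk1-Meg3 cluster of chromosome 12 the non-coding RNAs Meg3, Rian and Mirg overlapped between the cell types and did not pass either.

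**Figure D2:**
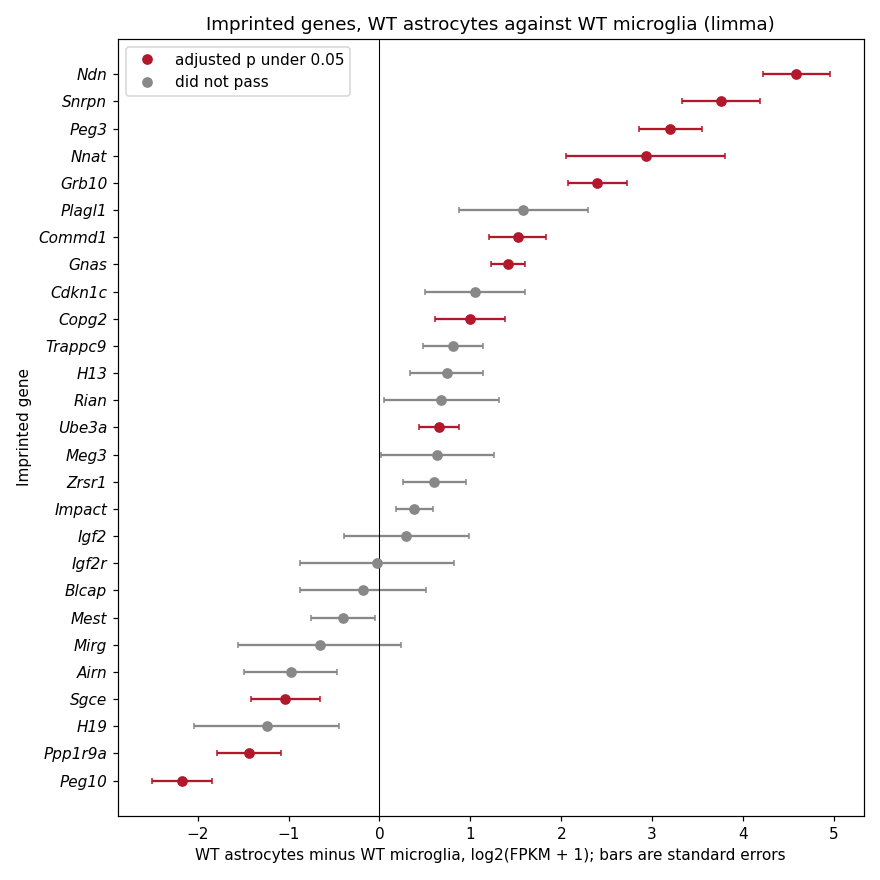
Difference in log2(FPKM + 1) between WT astrocytes and WT microglia for the 27 imprinted genes tested, ordered by size, with bars for the standard error of the limma fit. Positive values are higher in astrocytes, red points passed an adjusted p of 0.05, and the extremes are Ndn at 4.59 and Peg10 at -2.17.

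The scale of these differences depends on the normalisation. The median of all genes stood at -0.21 as deposited, 0.065 after quantile normalisation and -0.51 after rescaling to nuclear protein-coding genes. With those scalings 17 members (14 higher in astrocytes) and 10 members (7 higher) passed, and 56.7% and 37.3% of all calls were higher in astrocytes, against 45.7% as deposited. None of the 12 members turned direction. Markers of other cells also passed the test between the WT cell types, with 4 of 9 tested neuronal, 3 of 8 tested oligodendrocyte precursor, 10 of 11 tested oligodendrocyte and 3 of 4 tested fibroblast and meningeal markers higher in astrocytes and 0 lower. The 12 neuronal markers summed to 36.7 to 112 FPKM in WT astrocytes and 12.9 to 66.3 FPKM in WT microglia, the 9 markers of oligodendrocyte precursors to 439.8 to 632 and 35.4 to 109.8 FPKM, the 11 of oligodendrocytes to 4619 to 6370.4 and 1080.0 to 1832 FPKM, and the 12 of fibroblasts and meninges to 41.1 to 60.6 and 2.74 to 19.9 FPKM. No marker of these 4 lists was at 0 in every astrocyte library. In the WT libraries, 2 fibroblast and meningeal markers were at 0 in all astrocytes and 1 neuronal marker in all microglia. The part of these cells in the imprinted values was not tested. Fewer cells of a type and less RNA per cell cannot be told apart in such sums.

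Related genes were counted in the same way. Of 51 further imprinted genes, 26 were tested, and 11 were higher and 3 lower in WT astrocytes, with a median difference of 0.61. Among them Nap1l5, a paternally expressed nucleosome assembly protein, was at 9.18, 24.8 and 7.78 FPKM in WT astrocytes and 0.747, 0.966 and 0.729 FPKM in WT microglia, a difference of 3.12 log2 units (SE 0.34, adjusted p = 2.21e-05). Cd81, an abundant tetraspanin, was at 1825, 2072 and 2495 FPKM in WT astrocytes and 839, 674 and 519 FPKM in WT microglia (1.65 log2 units, SE 0.23, adjusted p = 0.000144). Tspan32, another tetraspanin, was lower in WT astrocytes, with a difference of -2.66 log2 units (SE 0.32, adjusted p = 4.57e-05). Of 34 tested regulators of imprinting and DNA methylation, 5 were higher and 11 lower, with a median of -0.54. Uhrf1, which guides maintenance methylation in dividing cells, differed by -2.38 log2 units (SE 0.37, adjusted p = 0.000321), and Tet1, an enzyme that oxidises methylcytosine, by 1.08 log2 units (SE 0.21, adjusted p = 0.00118). Of 20 tested genes of the IGF and insulin pathway, 10 were higher and 3 lower, with a median of 0.64. Igf1, a growth factor that microglia make, was at 0.0240, 0.0669 and 0.0171 FPKM in WT astrocytes and 65.1, 29.6 and 18.8 FPKM in WT microglia (-5.05 log2 units, SE 0.40, adjusted p = 2.09e-06). The IGF-binding protein Igfbp2 ran the other way, at 309, 292 and 505 FPKM in WT astrocytes and 0.108, 1.65 and 4.10 FPKM in WT microglia (6.98 log2 units, SE 0.45, adjusted p = 4.52e-07). In the genotype, age and interaction comparisons below, 0 members of these lists passed.

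No imprinted gene passed the threshold between KO and WT microglia. Of 24 members tested, 0 passed in limma, where 0.0818% of all 15889 genes passed. At an unadjusted p under 0.05 there were 3 members, against 7.96% of all genes. The genotypes of 6 members did not overlap, against 15.9% of all genes. Commd1, Impact, Gnas and Ppp1r9a were higher in each KO library (8.41% of all genes) and Mest and Airn lower (7.48%). Mest, a protein with a hydrolase fold, was at 1.23, 0.445 and 0.519 FPKM in KO microglia and 2.54, 3.80 and 2.02 FPKM in WT microglia, a difference of -1.13 log2 units (SE 0.34, adjusted p = 0.553) with an unadjusted p of 0.0153. Commd1 was at 18.5, 21.9 and 20.6 FPKM in KO microglia and 15.5, 14.5 and 9.86 FPKM in WT microglia (0.60 log2 units, SE 0.21, adjusted p = 0.593). Airn, the non-coding RNA that silences the paternal Igf2r, was at 1.92, 1.10 and 1.96 FPKM in KO microglia and 2.60, 3.97 and 3.25 FPKM in WT microglia (-0.69 log2 units, SE 0.27, adjusted p = 0.596). Markers of other myeloid cells were summed as well. The 12 monocyte and neutrophil markers summed to 62.1 to 124 FPKM in KO and 150.2 to 284 FPKM in WT microglia, without overlap, and the 10 markers of border macrophages to 314 to 349 FPKM in KO and 233 to 681 FPKM in WT microglia. The 11 oligodendrocyte markers summed to 1631 to 2671 FPKM in KO and 1080 to 1832 FPKM in WT microglia, with overlap. Of these 11, 7 had an unadjusted limma p under 0.05 and 0 passed the threshold. Their median difference was 0.90 log2 units, KO minus WT. No marker of these lists was at 0 throughout a microglia group, and their part in the imprinted values was not tested.

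Dlk1, a transmembrane ligand of the Notch family that restrains differentiation, was the one member in the authors' deposited table of 483 genes that differed in microglia. That table gives mean normalised counts of 1.00 in KO and 86.4 in WT microglia, a log2 ratio of WT over KO of 6.40 (1.67 after shrinkage) and an adjusted p of 0.00168. In FPKM the gene was low, at 0.0113, 0 and 0.00998 in KO microglia and 0.378, 0.402 and 1.29 in WT microglia, and the groups did not overlap. It fell under the filter of 1 FPKM. With no filter the KO minus WT difference in log2(FPKM + 1) was -0.70 (SE 0.21, limma adjusted p = 0.707). In astrocytes Dlk1 was at 0.140, 0.316, 0.145 and 0.264 FPKM in KO and 0.0459, 0.0523 and 0 FPKM in WT libraries. The authors' deposited table for astrocytes lists 10 genes, and 0 of them were members.

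Between KO and WT astrocytes no imprinted gene passed the threshold either. In a limma fit of the 7 astrocyte libraries with age as a covariate, 0 of 27 members passed, where 0.0224% of 13397 genes passed. No member had an unadjusted p under 0.05, against 4.19% of all genes, and the genotypes of 0 tested members failed to overlap, against 4.68%. The smallest p-values belonged to Impact, Mest and Rian. Impact was at 9.11, 6.21, 6.55 and 8.56 FPKM in KO and 10.2, 12.9 and 8.99 FPKM in WT astrocytes, and KO library 1 lay within the WT range while the other KO libraries lay below it (-0.47 log2 units, SE 0.25, adjusted p = 0.921). Mest was at 5.47, 8.78, 2.12 and 2.77 FPKM in KO and 1.76, 2.24 and 3.86 FPKM in WT astrocytes (0.65 log2 units, SE 0.38, adjusted p = 0.921). Rian, host of small nucleolar RNAs, was at 63.4, 4.76, 7.45 and 22.8 FPKM in KO and 6.46, 11.9 and 3.49 FPKM in WT astrocytes. Its difference was 0.99 log2 units (SE 0.67, adjusted p = 0.921), and in log2 units it was 0.47 when KO library 1 was left out and 0.66 when WT library 1 was. Of the abundant members, Peg3 (0.04 log2 units, SE 0.19), Ndn (-0.15, SE 0.24) and Gnas (0.13, SE 0.17) had narrow errors and Nnat (1.26, SE 0.91) a wide one.

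**Figure D3:**
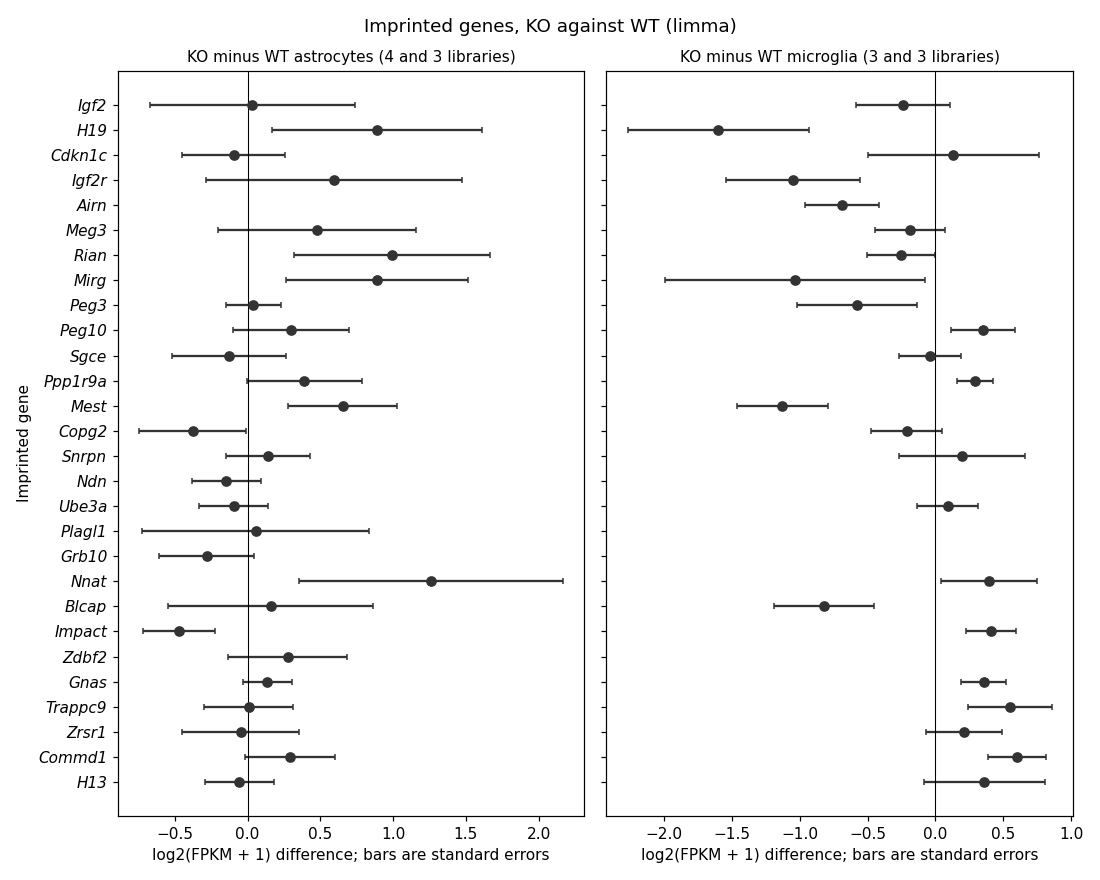
KO minus WT difference in log2(FPKM + 1) of each imprinted gene tested in astrocytes (left, 4 KO and 3 WT libraries) and in microglia (right, 3 KO and 3 WT libraries), with bars for the standard error of the limma fits. None passed an adjusted p of 0.05, and the widest bars belong to Nnat in astrocytes and to Mirg in microglia.

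KO astrocyte library 1 was the highest of the 7 astrocyte libraries for Igf2r, Meg3, Rian, Mirg, Copg2, Snrpn and Plagl1. These are 7 of the 27 members tested (25.9%), where it was the highest for 15.7% of all genes. KO library 4 and WT library 2 were each the highest for 5 members (18.5%). Over all genes those libraries were the highest for 13.7% and 23.7%, in that order. Igf2r was at 19.8, 1.57, 1.09 and 1.92 FPKM in KO and 1.63, 0.840 and 3.61 FPKM in WT astrocytes, so library 1 was several-fold above the rest. Meg3, a non-coding RNA abundant in neurons, was at 23.9, 5.44, 2.35 and 5.90 FPKM in KO and 5.84, 7.19 and 1.72 FPKM in WT astrocytes, with the same library highest. The 12 neuronal markers, none of them at 0 throughout an astrocyte group, summed to 418 FPKM in that library, 167 FPKM in KO library 4 and 36.7 to 112 FPKM in the WT libraries. KO library 4 was second for Rian. For Nnat, KO library 4 was the highest of the 7 and KO library 1 in the middle, and for Ndn KO library 1 was the second lowest. The part of neuronal RNA in these values was not tested.

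**Figure D4:**
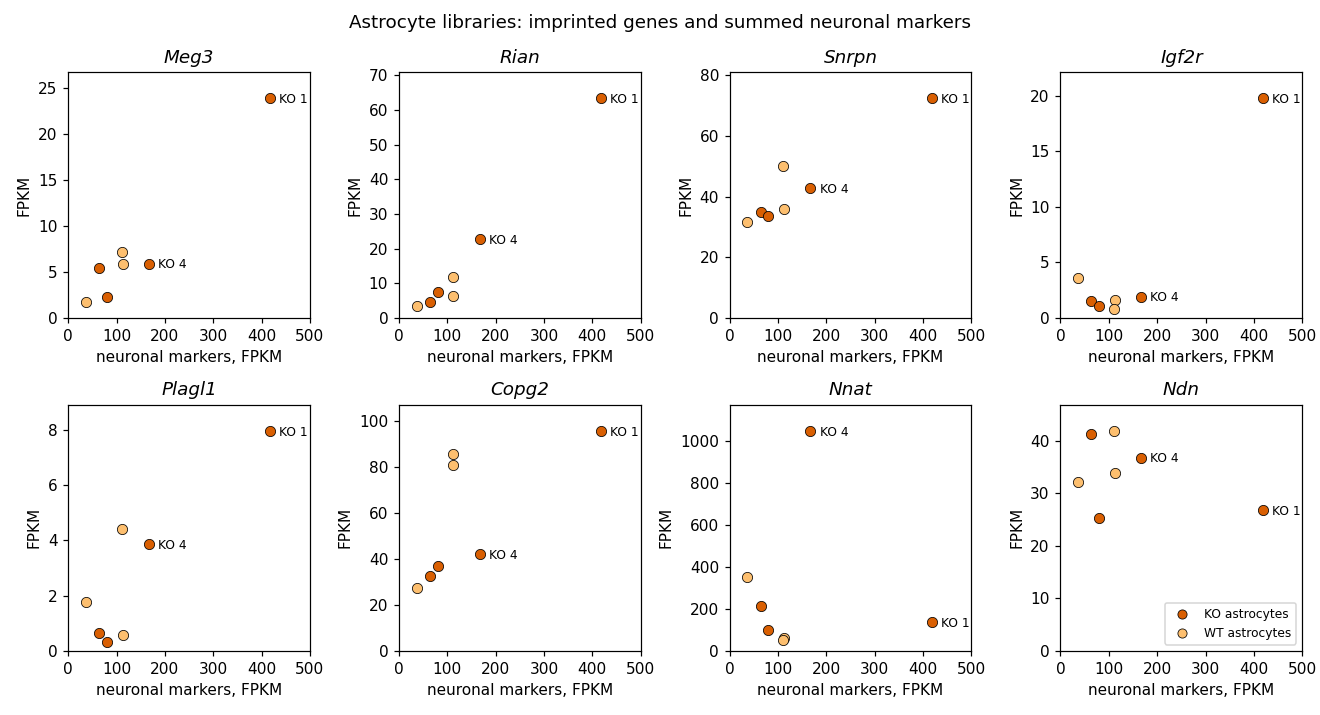
FPKM of 8 imprinted genes in the 7 astrocyte libraries (vertical axes) against the summed FPKM of 12 neuronal markers (horizontal axes), with KO and WT libraries in different colours and KO libraries 1 and 4 named. KO library 1, at 418 FPKM of neuronal markers, is highest for Meg3, Rian, Snrpn, Igf2r, Plagl1 and Copg2 and not for Nnat or Ndn.

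Whether the genotype difference itself differed between the cell types was tested as an interaction over all 13 libraries. Of 27 members 0 passed in limma, where 0.141% of 16258 genes passed, and 3 had an unadjusted p under 0.05, against 6.62% of all genes. Mest, with the smallest p, had an astrocyte minus microglia interaction of 1.78 log2 units (SE 0.46, adjusted p = 0.426), as its mean was 4.79 ± 3.03 FPKM in KO and 2.62 ± 1.10 FPKM in WT astrocytes and 0.731 ± 0.432 FPKM in KO and 2.79 ± 0.915 FPKM in WT microglia (SD, n = 4, 3, 3 and 3). Impact had -0.88 log2 units (SE 0.27, adjusted p = 0.564), with 11.2, 13.2 and 10.8 FPKM in KO and 7.93, 10.1 and 7.80 FPKM in WT microglia beside the astrocyte values above. H19 had 2.49 log2 units (SE 1.04, adjusted p = 0.751), with 0.297, 7.94, 1.19 and 6.78 FPKM in KO and 1.94, 0 and 2.58 FPKM in WT astrocytes and 0.809, 0.0272 and 0.0279 FPKM in KO and 3.86, 6.41 and 0.480 FPKM in WT microglia, so its groups overlapped in either cell type.

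Age was compared in astrocytes, with 5 libraries at P12 and 2 at P9, the 2 being 1 KO and 1 WT, in the same fit of the 7 libraries, with genotype as the other term. Of 27 members 0 passed in limma, where 0.0970% of 13397 genes passed, and 3 had an unadjusted p under 0.05, against 8.61% of all genes. The ages of 6 tested members did not overlap, against 14.7% of all genes. Slc22a18, which fell under the filter, is described with the flagged results below. Copg2, Rian, Ube3a and Mirg were higher in each P12 library (8.27% of all genes) and Cdkn1c and Grb10 lower (6.44%). Cdkn1c averaged 3.92 ± 1.34 FPKM at P12 (SD, n = 5) and 10.9 ± 2.27 FPKM at P9 (SD, n = 2), a difference of -1.30 log2 units (SE 0.38, adjusted p = 0.395). By library it was at 3.67, 5.30, 2.77, 2.52 and 5.32 FPKM at P12 (KO 1, 3 and 4, WT 1 and 2) and 9.33 and 12.5 FPKM at P9 (KO 2 and WT 3). Grb10 averaged 5.36 ± 1.92 FPKM at P12 and 11.2 ± 2.58 FPKM at P9 (-0.95 log2 units, SE 0.36, adjusted p = 0.530). Copg2 averaged 68.3 ± 26.8 FPKM at P12 and 30.1 ± 3.76 FPKM at P9 (1.10 log2 units, SE 0.40, adjusted p = 0.517), and its difference in log2 units was 0.68 without WT library 3, which leaves a single P9 library. Ndn and Peg3 had differences of -0.15 (SE 0.26) and -0.15 log2 units (SE 0.21). Neuronal markers summed to 79.8 to 418 FPKM at P12 and to 63.8 and 36.7 FPKM at P9, without overlap, and their part in the age values, among them those of Rian and Mirg, was not tested.

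**Figure D5:**
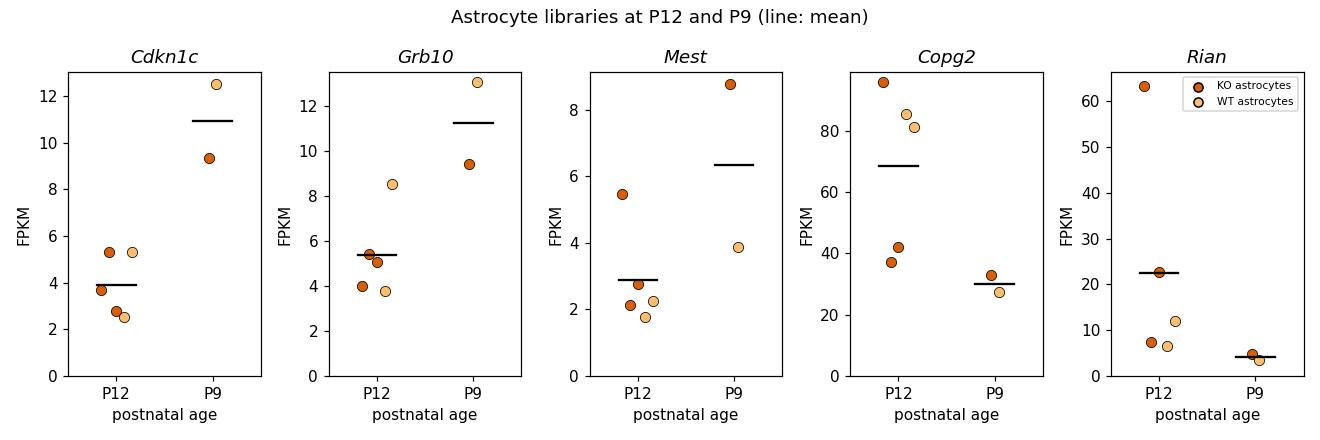
FPKM of 5 imprinted genes in astrocytes at P12 (5 libraries, left in each panel) and P9 (2 libraries, right), with KO and WT libraries in different colours and a line at each mean. Cdkn1c and Grb10 are lower at P12, Copg2 and Rian higher, and the ages of Mest overlap. None passed an adjusted p of 0.05.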

How the data were processed

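Per the labels' protocols, RNA from sorted cells was prepared with TRIZOL, DNase and RNeasy columns, and NuGEN RNA-Seq V2 gave the libraries. The submitters' processing notes name GRCm38 and, with no order, Cuffnorm, Cufflinks, DESeq2, HTSeq 0.6.1p1, Bowtie2 2.2.3, TopHat2 2.0.11 and FastQC. Their settings, the annotation and any use of strand were not given in the sources used here. What the authors deposited is FPKM per gene and library. Per the file headers, their 2 tables of genotype differences hold normalised signal (mean counts per genotype), log2 ratios of WT over KO, a test score and p-values, for genes past their threshold only. Count models were not applied to FPKM. Groups came from the labels.

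Groups were compared by limma 3.58.1 under R 4.3.3 (lmFit, eBayes with trend, two-sided) on log2(FPKM + 1), a scale that understates the change of low genes. Genes with a mean of at least 1 FPKM over the fitted libraries were kept, and p-values were adjusted by Benjamini-Hochberg over all of them. The script was tested on simulated data. Exact zeros were kept. GENCODE M21, which holds 96.0% of the identifiers, gave coordinates on GRCm38. The members and lists were chosen with earlier results of these data known. Per-library values are given for members with a group mean of at least 5 FPKM that passed in any comparison, and for the 3 members with the smallest p in each genotype, age and interaction comparison. Members quoted beyond that rule were chosen after their values were seen. Alternatives covered the pseudocount, the filter, 2 scalings, the variance trend, covariates, the fitted libraries, a replicate block and each library left out.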

Additional observations from a re-analysis of the deposited data

Results flagged for a closer look

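In the 4 KO astrocyte libraries, 35 imprinted genes were checked for a library far from the others (Dixon's test), and 7 had one (20.0%). Chance gives about 1 in 20 for normally distributed values, while 23.3% of all 22010 genes that varied over these libraries had one in FPKM, so nothing is read from the number. Of the genes with a mean of at least 1 FPKM over astrocytes, 5 of 27 imprinted genes (18.5%) and 1421 of all 13246 (10.7%) had one. KO library 1 stood apart for Igf2r at 19.8 FPKM, Meg3 at 23.9 FPKM and Copg2 at 95.8 FPKM. KO library 4 stood apart for Nnat at 1048 FPKM and Magel2 at 0.902 FPKM. Magel2 was listed at 0 in 2 of the other libraries, as was Slc22a18. KO library 2, the one taken at P9, stood apart for Slc22a18 at 2.21 FPKM, and KO library 3 for Gnas at 855 FPKM. Slc22a18 was also at 0.808 FPKM in WT astrocyte library 3, the other P9 library. It was at most 0.0295 FPKM in the P12 astrocyte libraries, so its ages did not overlap. With no filter on low values its P12 minus P9 difference in log2(FPKM + 1) was -1.29 (SE 0.19, limma adjusted p = 0.126), which did not pass.

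Dlk1 was higher in every KO astrocyte library than in any WT astrocyte library, and lower in every KO microglia library than in any WT microglia library. With no filter on low values the interaction in log2(FPKM + 1) came to 0.94 with an SE of 0.23 (adjusted p = 0.392 in limma), so this opposite direction did not pass. Levels were at most 1.29 FPKM.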

How the results depend on the processing

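The number of members called stayed within 1.5 times the reported number under all 82 alternatives. It was 10 to 17 between WT astrocytes and WT microglia (10 to 12 on leaving out a library) and 0 throughout the genotype, age and interaction comparisons. Of 435 alternatives for 24 member results, 0 turned direction. Only the 12 members called between the cell types could lose a call, and 29 alternatives lost one. These were 5 of 21 alternatives for Ube3a, 13 of 21 for Sgce and 11 of 21 for Copg2. Among them, adjusted p was 0.220 for Ube3a (a difference of 0.36 log2 units) and 0.155 for Copg2 after rescaling, 0.137 for Ube3a and 0.1996 for Sgce in WT libraries alone, and 0.0667 for Sgce and 0.0760 for Copg2 without a filter. The causes were not tested. With a pseudocount of 0.1 the differences of Mest in microglia, of its interaction and of the H19 interaction became -1.87, 2.68 and 5.03. Over all genes, calls ranged from 3 to 48 (13 as reported) for genotype in microglia, 0 to 8 (3 as reported) in astrocytes, 14 to 75 (23 as reported) for the interaction and 6 to 82 (13 as reported) for age. The highest came without KO microglia library 1 (48, and 75 for the interaction), WT astrocyte library 2 (8) and WT astrocyte library 3 (82), and 62 genes were called for age without KO astrocyte library 2. The replicate block gave 12 members between the cell types and 0 for genotype and interaction, with 3, 0 and 14 genes called over all genes for microglia, astrocytes and the interaction. Deviations of same-numbered KO and WT libraries correlated across genes at -0.079 to 0.018 in astrocytes and 0.012 to 0.028 in microglia. Differently numbered libraries correlated at -0.057 to 0.125 in astrocytes and -0.021 to -0.0004 in microglia. The highest, 0.125, was between KO library 2 and WT library 3 of astrocytes, which are both at P9. In astrocytes the numbers 2 and 3 each join a P9 with a P12 library. The numbers therefore do not pair astrocyte libraries by age, and the replicate block there is no check of pairing. In microglia all values are small, and whether the numbers pair the libraries is not settled by them. No block was fitted for age. Depth limits the low members most in astrocytes, whose libraries are the shallower ones.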
